A study of Mus musculus with 4 samples.

Results

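Single-cell libraries of mouse bone marrow held 2137 cells caught at the start of DNA replication, out of 33042 cells kept in all. A cell was counted as entering S phase when at least 6 of 10 genes switched on at the G1/S boundary (Ung, Dtl, E2f1, Cdc6, Ccne1, Ccne2, Cdt1, Gins2, Uhrf1 and Hells) had 1 or more UMI. A UMI is the molecular tag that marks 1 captured RNA molecule. At most 2 of 10 genes of G2 and mitosis (Ccnb1, Ccnb2, Cdc20, Cenpa, Cenpf, Aurka, Plk1, Ube2c, Hmmr and Tpx2) could be detected in the same cell. Cells with any UMI of Pf4 (megakaryocytes and platelets), Dntt (early lymphoid cells) or Ms4a3 (granulocyte-monocyte progenitors) were left out. Of the kept cells, 6146 met the G1/S condition, 3662 of these also met the G2/M condition, and 2137 of those had 0 UMIs of the 3 lineage genes. The cells came from 2 male Tppp3CreER LSLTdTomato mice aged 3 months. In this design a tamoxifen-activated Cre recombinase under control of Tppp3 removes a stop cassette and leaves a cell and its descendants red with tdTomato. Both mice received tamoxifen at P0 and P3, the first days after birth, and no mouse without tamoxifen or without the Cre is among the groups. Marrow cells enriched on c-Kit were sorted as Lin-Sca+Kit+ cells, and each mouse gave 1 tube of tdTomato-positive and 1 of tdTomato-negative cells, told apart by hashtag antibodies. The cells of each of the 4 tubes were divided between 2 versions of the 10x Genomics 3′ assay, GEM-X and v3.1, so that every tube was measured in both. The submitters call the sorted cells HSCs (haematopoietic stem cells), but the gate as given holds multipotent progenitors as well. Another of their texts speaks of 1 tube per gate for both mice, and the 4 tubes are taken here as the hashtags give them.

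A cell that commits to divide loads the Mcm2-7 helicase on replication origins in G1, and cyclin E with Cdk2 then fires those origins. The switch is drawn by E2F transcription factors, which are held by the retinoblastoma protein until D-type cyclins with Cdk4 or Cdk6 release them, and which turn on licensing factors, DNA polymerases and the enzymes that make deoxynucleotides. Genes of G2 and mitosis are turned on later through a second kind of promoter, with CCAAT boxes bound by NF-Y and a cell cycle homology region (CHR) bound by the MuvB complex. Most HSCs are quiescent, while the multipotent progenitors of the same Lin-Sca+Kit+ fraction divide more often.

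Promoters of 5 of the 20 cycle genes are printed here to show the letters by which the G1/S and G2/M genes of the rule differ. RefSeq promoter entries (build GRCm38.p6, 250 bases before and 50 after the start) were found for 8 of the 10 G1/S genes and 9 of the 10 G2/M genes. E2F-type letters (TTTCCCGC, TTTGGCGC, TTTCGCGC or TTTGCCGC, on either strand) were present in 5 of the 8 G1/S genes (Dtl, Cdc6, Cdt1, Uhrf1 and Hells) and in 0 of the 9 G2/M genes. The same letters were present in 2.605% of the 27025 genes with an entry. CCAAT together with the CHR letters TTTGAA was present in 0 of the 8 G1/S genes and in 8 of the 9 G2/M genes, against 7.974% of all genes. Capitals in the sequences below, which run 5′ to 3′ up to the base before the start, mark the E2F-type letters, CCAAT and the CHR letters or their reverse complements. Dtl lies at chr1:191575545-191575794, minus strand, Hells at chr19:38930740-38930989, plus strand, Cdc6 at chr11:98907901-98908150, plus strand, Cdc20 at chr4:118437344-118437593, minus strand, and Ube2c at chr2:164769679-164769928, plus strand.
Dtl: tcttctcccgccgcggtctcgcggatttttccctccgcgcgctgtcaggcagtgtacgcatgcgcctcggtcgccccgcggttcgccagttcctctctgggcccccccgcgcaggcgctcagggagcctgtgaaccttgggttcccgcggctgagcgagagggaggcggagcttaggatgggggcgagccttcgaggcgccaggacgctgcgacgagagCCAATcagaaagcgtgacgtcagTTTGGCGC
Hells: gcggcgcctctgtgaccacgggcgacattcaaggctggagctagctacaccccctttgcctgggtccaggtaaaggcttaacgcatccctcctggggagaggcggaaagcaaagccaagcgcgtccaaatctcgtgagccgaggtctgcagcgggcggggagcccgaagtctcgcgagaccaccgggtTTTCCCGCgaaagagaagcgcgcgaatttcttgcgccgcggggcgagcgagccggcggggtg
Cdc6: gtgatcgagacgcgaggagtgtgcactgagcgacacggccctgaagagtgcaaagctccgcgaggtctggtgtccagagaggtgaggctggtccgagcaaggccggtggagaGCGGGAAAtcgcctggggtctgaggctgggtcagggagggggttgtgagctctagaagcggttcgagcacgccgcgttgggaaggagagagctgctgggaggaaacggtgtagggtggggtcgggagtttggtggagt
Cdc20: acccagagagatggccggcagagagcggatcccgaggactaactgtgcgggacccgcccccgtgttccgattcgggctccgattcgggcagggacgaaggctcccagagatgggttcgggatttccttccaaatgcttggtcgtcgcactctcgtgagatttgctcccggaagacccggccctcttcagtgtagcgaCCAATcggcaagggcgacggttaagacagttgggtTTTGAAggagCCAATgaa
Ube2c: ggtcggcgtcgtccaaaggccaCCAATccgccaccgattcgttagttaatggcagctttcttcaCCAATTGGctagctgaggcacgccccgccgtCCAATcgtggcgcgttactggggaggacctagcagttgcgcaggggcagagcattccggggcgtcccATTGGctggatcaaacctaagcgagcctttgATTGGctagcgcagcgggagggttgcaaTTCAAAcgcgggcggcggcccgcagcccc
Counted from the start, the E2F-type letters begin at position -8 in Dtl, -62 in Hells and -138 in Cdc6. In Cdc6 they are on the other strand (GCGGGAAA as printed), and in Ube2c the run CCAATTGG holds CCAAT on both strands. Letters of this kind describe the windows and do not show binding. Starts without an entry were not examined, also for Ung, E2f1 and Ccne1, whose windows lacked E2F-type letters.

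The cells were chosen by the UMIs of the 20 cycle genes and 3 lineage genes, whose values are given as a description. Levels are counts per 1000000 (CPM), the UMIs of a gene scaled to that number of UMIs summed over the cells of a class in 1 tube. Uhrf1, which keeps DNA methylation on newly made strands, was at 216, 196, 243 and 222 CPM in the cells entering S phase of the positive and negative tubes of mouse 1 and then of mouse 2. It was at 4.22 to 5.75 CPM in 10950 resting cells and at 72.0 to 79.9 CPM in 1992 G2/M cells. Resting cells had the same quality and lineage conditions and at most 1 gene of each list, and G2/M cells had at least 6 of the 10 G2/M genes. The G2/M class had no limit on G1/S genes, and 393 of its 1992 cells also had at least 6 of those 10. Dtl, part of the ligase that destroys Cdt1 once replication has begun, was detected in 92.6% to 95.6% of the cells per tube, and Hells, a chromatin remodeller, in 96.2% to 96.7%. Ung, which removes uracil from DNA, averaged 107 CPM, against 2.27 to 4.53 CPM in resting and 1.62 to 6.56 CPM in G2/M cells, the largest ratio of the 10 between these cells and G2/M cells (24.1). Ccne1 (cyclin E1) was the least often detected of the 10, in 12.5% to 14.9% of the cells, and was the only one whose G2/M tubes (12.4 to 37.8 CPM) reached above its range in the cells entering S phase (12.0 to 13.7 CPM). Among the 10 G2/M genes Tpx2, a spindle assembly factor, was the one found most often, in 27.2% to 33.6% of the cells.

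Most cells sat close to the lower limit of the rule. Exactly 6 G1/S genes were detected in 811 cells, 7 in 688, 8 in 411, 9 in 207 and all 10 in 20 cells. No G2/M gene was detected in 792 cells, 1 in 789 and 2 in 556. Just outside, 805 cells met every other condition with 5 G1/S genes. Pcna, the sliding clamp of the replication fork, averaged 317 CPM over the 4 tubes in cells with 6 G1/S genes and 289 CPM in cells with 5, and Clspn (claspin) 108 and 78.3 CPM. Detection grows with depth, and cells with 6 genes had a median of 11120 UMIs against 10191 with 5. Over all classes the medians were 12126 UMIs in cells entering S phase, 6591 in resting cells and 16105 in G2/M cells, so the rule took deeper cells than the resting class.

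The 2 libraries gave 18294 kept cells in GEM-X, at a median of 9290.5 UMIs, and 14748 in v3.1, at a median of 7626.5, and shared 0 cell barcodes among kept cells. The cells entering S phase numbered 1322 in GEM-X and 815 in v3.1, and 235, 844, 271 and 787 in the 4 tubes. Most markers of B, T and NK cells, macrophages, neutrophils and stroma were low in them, other than Nkg7 and Cd79b. Nkg7, a granule gene of the T and NK cell list, was at 185, 176, 166 and 160 CPM against 88.5 to 96.5 CPM in resting cells (1.01 ± 0.04), and Cd79b of the B cell list was at 24.6 to 27.4 CPM against 27.6 to 34.9 CPM. Cd3e, Cd3g, Gzma, Il2rb, Lepr and Col1a1 were at 0 in every tube. Of 2137 cells 0 had 3 or more of 8 B cell genes, which allows a share of up to 0.140% (counting error only, cells pooled over the tubes). The 5 neutrophil genes summed to 7.46 to 11 CPM. In the tdTomato-negative tube of mouse 2 the same neutrophil sum reached 171 CPM in resting and 285 CPM in G2/M cells, and without that tube the log2 differences from resting cells went from -2.57 to -0.68 in S100a8 and from -3.03 to -0.72 in S100a9, and those from G2/M cells from -2.83 to 0.39 and from -3.34 to 0.49. The markers given for the class, Ung, Dtl, E2f1 and Hells, are all genes of the rule and so cannot check it. The absence of Pf4, Dntt and Ms4a3 is likewise a condition of the rule. The HSC and progenitor genes described below are the measured values that bear on the name multipotent, and no cell was tested for what it can form.

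Against resting cells, 4816 of 13579 genes outside the rule differed (35.5%), 2349 higher (17.3%) and 2467 lower (18.2%) in cells entering S phase. A gene counted as different at an adjusted p below 0.05 in edgeR's quasi-likelihood test and an absolute log2 fold change of at least 0.5, with the 4 tubes as pairs. Against G2/M cells the count was 2778 of 12689 genes (21.9%), with 1684 higher (13.3%) and 1094 lower (8.62%). Both contrasts are the ones that the rule itself draws, in the same cells, so these counts and those of the lists below describe the classes and are read as nothing more. The median log2 difference over all genes tested was -0.041 against resting and -0.0023 against G2/M cells.

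Genes that license and open replication origins were higher in the cells entering S phase than in resting cells, and the helicase was also higher than in G2/M cells. Of 21 such genes 18 were higher and 0 lower than in resting cells, with a median log2 difference of 2.63, and 8 were higher and 1 lower than in G2/M cells, with a median of 0.39. All 6 subunits of the Mcm2-7 helicase were higher against both classes. Mcm5 was at 167, 156, 173 and 178 CPM in the 4 tubes of cells entering S phase, at 18.0 to 21.0 CPM in resting and at 63.1 to 84.5 CPM in G2/M cells. The 3 classes did not overlap, and the log2 differences were 3.26 ± 0.05 (SE) against resting and 1.13 ± 0.06 against G2/M cells. Mcm2 differed by 2.63 and 1.38, and Mcm6 by 2.28 and 1.30. Orc1, the subunit of the origin recognition complex that cycles, was at 32.9 ± 3.34 CPM (SD, n = 4) against 3.14 ± 0.730 in resting and 13.1 ± 2.47 in G2/M cells. Orc3, Orc4 and Orc5, subunits of the same complex, differed by 0.16, -0.04 and 0.05 from resting cells and did not pass. Mcm10, which helps to start the fork, had the largest log2 difference from resting cells of any gene named here (5.78 ± 0.10) but differed by only 0.22 from G2/M cells.

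Genes of this list that act on licensed origins, or that end licensing, were not all highest in these cells. Cdc7, the kinase that fires origins, was at 38.2, 42.7, 42.0 and 45.5 CPM in the cells entering S phase and at 37.7 to 42.6 CPM in G2/M cells, and these ranges overlap. Dbf4, the subunit that activates Cdc7, was at 37.5 ± 0.956 CPM in the cells entering S phase, 19.2 ± 1.54 in resting and 123 ± 6.24 in G2/M cells (log2 difference from G2/M cells -1.76 ± 0.06). Gmnn (geminin), which blocks renewed licensing by Cdt1, was already at 186 ± 13.5 CPM against 16.1 ± 1.17 in resting and 129 ± 6.48 in G2/M cells, where the difference of 0.47 fell short of the fold minimum.

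Replication fork genes were uniformly above the resting level. All 31 of the list were higher than in resting cells, by 1.01 to 5.05 on the log2 scale (median 2.59), and 19 were higher and 0 lower than in G2/M cells (median 0.66). Pcna was at 355, 347, 387 and 385 CPM in the cells entering S phase, at 70.2 to 75.2 CPM in resting and at 178 to 204 CPM in G2/M cells. Lig1, which joins Okazaki fragments, was at 286 ± 12.8 CPM against 27.8 ± 3.50 and 124 ± 8.70. Clspn, which links the fork to the checkpoint kinase, differed by 5.05 ± 0.06 from resting cells and by 0.25 ± 0.05 from G2/M cells, below the fold minimum. Dscc1, part of the loader that helps join sister chromatids, had the largest difference of the list from G2/M cells, 1.46 ± 0.08. Fen1, Asf1b and Rpa3 were among the 12 fork genes that did not pass against G2/M cells.

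Enzymes of nucleotide supply were mostly raised as well. Of 19 genes 18 were higher than in resting cells and 6 were higher than in G2/M cells. Rrm2, the regulated subunit of ribonucleotide reductase, was at 69.3, 66.5, 71.0 and 62.8 CPM against 1.95 to 2.85 CPM in resting cells. In G2/M cells it was at 59.6 to 84.9 CPM, a range that holds all 4 values of the cells entering S phase. Tk1, the salvage kinase for thymidine, was at 94.3 ± 10.6 CPM against 2.90 ± 0.215 in resting and 95.6 ± 4.55 in G2/M cells. Samhd1, which breaks down deoxynucleotides, was the 1 gene of the list that was lower than in resting cells, at 56.5, 63.6, 52.7 and 54.8 CPM against 133 to 146 CPM (-1.15 ± 0.05).

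**Figure D1:**
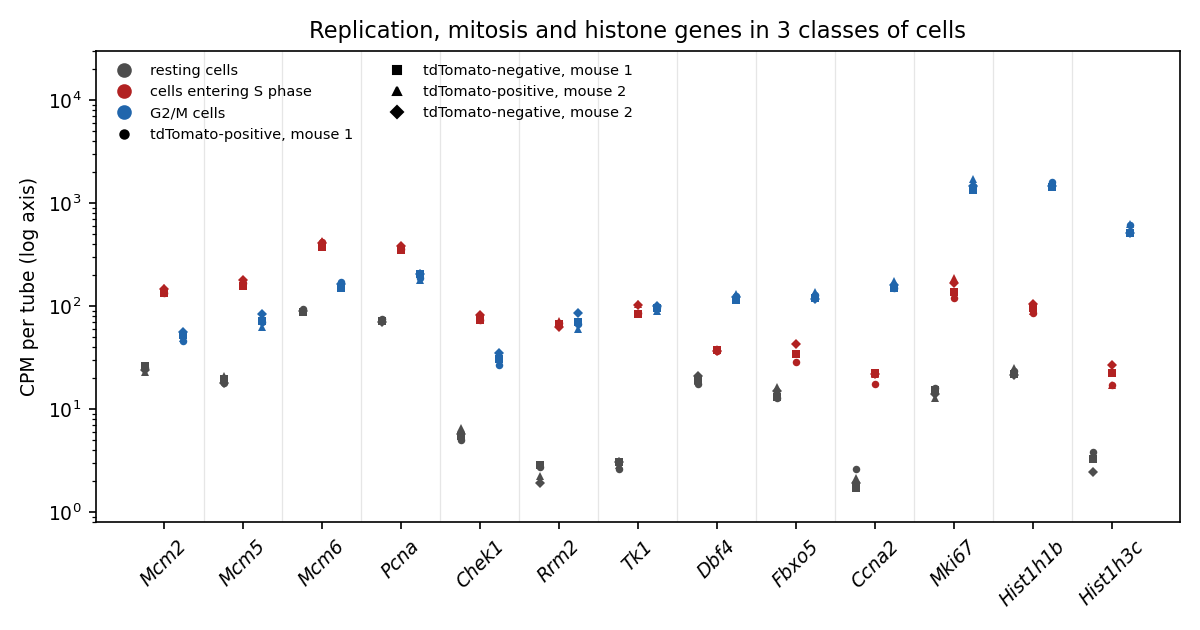
CPM on a log axis of 13 genes of replication, mitosis and the chromatin of S phase, 1 point per tube, in resting cells (grey), cells entering S phase (red) and G2/M cells (blue), with a marker shape per tube. Mcm2, Mcm5, Mcm6, Pcna and Chek1 are highest in the cells entering S phase, Rrm2 and Tk1 are alike in both dividing classes, and Mki67, Hist1h1b and Hist1h3c lie far above them in the G2/M cells.

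The regulators of the G1/S switch went both ways. Of 24 genes 16 were higher and 4 lower than in resting cells, and 8 were higher and 5 lower than in G2/M cells. The D-type cyclins, which start the switch, differed from one another. Ccnd1 (cyclin D1) was at 60.2, 53.5, 55.5 and 56.7 CPM, above the 23.5 to 32.3 CPM of resting cells and far above the 5.93 to 13.3 CPM of G2/M cells. Its log2 difference from G2/M cells, 2.37 ± 0.12, was the largest among the higher genes ranked by size. That ranking held called genes averaging at least 10 CPM, with a sign shared by all tube pairs and both chemistries. Gene models and near-identical families were left out of it. Ccnd2 (cyclin D2) was at 230 ± 14.5 CPM against 248 ± 7.85 in resting cells (a log2 difference of 0.0021) and 116 ± 7.20 in G2/M cells (0.94 ± 0.06). Ccnd3 (cyclin D3) was at 156 ± 12.4 CPM against 342 ± 12.0 in resting cells (-1.02 ± 0.03) and 155 ± 15.3 in G2/M cells. Cdk4 was higher than in resting cells by 1.12, and Cdk6, its partner kinase, by 0.47, short of the fold minimum.

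The E2F genes of the list were higher than in resting cells, the repressive ones included. E2f7, which shuts E2F targets down late in S phase, was at 39.2, 31.1, 51.1 and 39.5 CPM, against 0.823 to 1.02 CPM in resting and 39.4 to 43.9 CPM in G2/M cells. E2f8, its relative, was at 43.6 ± 4.73 CPM against 85.1 ± 8.07 in G2/M cells (-0.96 ± 0.07). E2f3 differed by 1.18 from resting cells, Rbl1 (the pocket protein p107) by 1.75, and Rb1 by 0.51, a difference that was 0.47 and no longer passed when resting cells were matched on UMI count. The matching paired cells entering S phase with resting cells of the same tube and chemistry within 10% of their UMIs. Cells of both classes without a partner were left out, so matched values also rest on fewer cells entering S phase. Rbl2, the p130 pocket protein of quiescent cells, was lower by 0.46 and did not pass. Among the inhibitors, Cdkn1b (p27) was at 33.8 ± 5.12 CPM, below both the 64.4 ± 1.45 of resting and the 66.3 ± 5.60 of G2/M cells. Cdkn1c (p57), an inhibitor that marks quiescent HSCs, was at 8.12, 7.81, 12.0 and 7.80 CPM against 17.6 to 20.9 CPM in resting cells. That difference of -1.09 was -0.39 and no longer passed after the same matching. Cdkn1a (p21) was higher than in resting cells by 1.67 ± 0.13. Fbxo5 (Emi1), which holds back the ubiquitin ligase of mitosis once S phase is under way, was at 34.9 ± 6.10 CPM against 14.3 ± 1.62 in resting and 126 ± 9.12 in G2/M cells.

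Repair and checkpoint genes were also above the resting level. Of 20 genes 19 were higher than in resting cells (median 2.80), and against G2/M cells 6 were higher and 1 was lower. Chek1, the kinase of the replication checkpoint, was at 74.1, 73.7, 81.1 and 82.8 CPM, against 5.08 to 6.59 CPM in resting and 27 to 35 CPM in G2/M cells (1.22 ± 0.07). The mismatch repair gene Msh6, whose protein binds Pcna, was higher than in G2/M cells by 0.92. Brca1, which protects stalled forks, was at 106 ± 9.13 CPM against 3.93 ± 0.734 in resting and 80.0 ± 5.72 in G2/M cells. Fancd2, a clamp on damaged DNA, was the 1 gene that was lower than in G2/M cells, at 26.7, 25.5, 30.3 and 29.3 CPM against 50.7 to 57.5 CPM (-1.02 ± 0.08). Atr, the upstream kinase, did not pass against either class (0.45 and 0.05).

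Genes of the late cycle lay between the resting and the G2/M level. All 30 genes of G2 and mitosis outside the rule were lower than in G2/M cells, by 0.54 to 4.33 on the log2 scale, and 29 of the 30 were higher than in resting cells. Mki67 (Ki-67) was at 119, 138, 188 and 169 CPM, against 12.8 to 16.1 CPM in resting and 1349.7 to 1715 CPM in G2/M cells. Top2a, which untangles replicated DNA, was at 378 ± 41.5 CPM against 32.1 ± 0.878 and 1393 ± 122. Ccna2 (cyclin A) was at 21.0 ± 2.30 CPM against 2.11 ± 0.377 and 159 ± 13. Kif23, a kinesin of cytokinesis, was the 1 gene of the 30 that did not pass against resting cells (0.38), and it passed with resting cells matched on UMI count (0.63). Lmnb1 (lamin B1) was nearest to its G2/M level, with a difference of -0.54.

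Replication-dependent histone genes, whose RNAs accumulate during DNA synthesis, were far below their G2/M level. These RNAs mostly lack a poly(A) tail, and the 3′ assay captures such RNAs poorly, so only differences between classes are given. All 11 were lower than in G2/M cells, by 2.17 to 4.67. Hist1h1b was at 86.2, 95.2, 89.6 and 104 CPM in the cells entering S phase, at 21.6 to 25.1 CPM in resting and at 1438 to 1603 CPM in G2/M cells (-4.03 ± 0.06). Hist1h3c was at 20.9 ± 4.79 CPM against 565 ± 63.5 in G2/M cells. Against resting cells 6 of the 11 were higher and 4 lower. The 4 lower ones were the linker histones Hist1h1c (-0.82), Hist1h1d (-0.54) and Hist1h1e (-0.59) and the core histone Hist1h2ac (-0.65). With resting cells matched on UMI count Hist1h2ae and Hist2h2ac no longer passed. Slbp, which binds the stem loop of histone RNAs, was at 206 ± 15.6 CPM in the same cells, above the 55.7 ± 2.24 of resting and the 145 ± 8.18 of G2/M cells, where the difference of 0.43 did not pass. Reads from near-identical histone copies could be split between genes, and these values are uncertain to that extent.

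Among the cells themselves, those with more G2/M genes had higher levels of late genes and like levels of the licensing genes Mcm2 and Mcm5. Over cells with 0, 1 and 2 of the 10 G2/M genes, Mcm5 averaged 164, 170 and 172 CPM and Mcm2 142, 142 and 140 CPM. Over the same bins Rrm2 averaged 37.9, 67.7 and 104 CPM, Mki67 65.1, 143 and 277 CPM, and Hist1h1b 31.7, 63.2 and 212 CPM. Just outside the rule, in 362 cells with 3 G2/M genes, Mki67 averaged 532 CPM and Hist1h1b 695 CPM. Median depth went up along these bins as well, from 11318.5 to 13052.5 UMIs within the rule, and its part in the detection of G2/M genes was not tested. Sorted instead by the number of G1/S genes, from 6 to 9 or more, Ccnd1 averaged 55.3, 55.4, 54.2 and 68.2 CPM, Hlf 328, 286, 279 and 297 CPM, and Rrm2 39.3, 71.7, 79.8 and 114 CPM. These bins use the counts that chose the cells and are descriptions without a test.

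**Figure D2:**
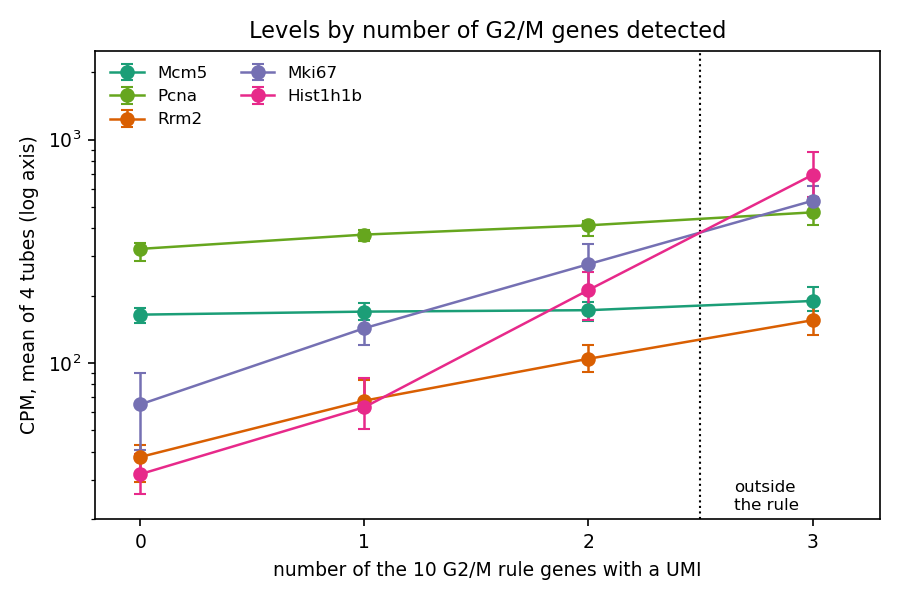
CPM on a log axis (mean of 4 tubes, bars from the lowest to the highest tube) of 5 genes in cells with 0, 1 or 2 of the 10 G2/M genes, and in cells just outside the rule with 3. Mcm5 stays between 164 and 189 CPM, while Hist1h1b goes from 31.7 to 695 CPM.

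Growth genes were higher and several quiescence genes lower than in resting cells. Of 22 genes of growth and ribosome biogenesis 18 were higher and 1 lower, with a median of 0.82. Nop56, a core protein of ribosomal RNA modification, was at 297, 291, 309 and 307 CPM against 124 to 140 CPM, and Srm, which makes spermidine, differed by 1.33 ± 0.04. Myc did not pass (188 ± 10.6 against 157 ± 7.06 CPM in resting cells), and Mycn was the 1 gene that was lower (31.9 ± 3.34 against 76.4 ± 4.73 CPM). With resting cells matched on UMI count, Ncl, Nop2, Eif4a1, Rrp9 and Bop1 no longer passed, and the median was 0.61. Of 13 glycolysis genes measured 7 were higher, among them Tpi1 (1.09), Ldha (0.97) and Pgam1 (0.97). Eno1 and Pkm no longer passed after matching. Of 10 quiescence regulators 8 were lower and 0 higher, and 2 of these (Cdkn1c and Ndn) no longer passed after matching. Txnip, which restrains glucose uptake, was at 120, 124, 150 and 161 CPM against 284, 300, 381 and 389 CPM in the resting cells of the same tubes (-1.17 ± 0.03), and in both classes mouse 2 was above mouse 1. Of 10 interferon response genes 7 were lower and 0 higher, with Oasl2 at 14.5 to 17.9 CPM against 39.2 to 47.2 CPM, and Isg15 no longer passed after matching on UMI count. Of 11 p53 target genes tested 3 were higher (Cdkn1a, Bax and Phlda3) and 4 lower.

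HSC genes were detected in the cells entering S phase at a lower level than in resting cells. Of 10 HSC genes 8 were lower than in resting cells, with a median of -1.0, and 1 was higher. Hlf, a transcription factor of HSCs, was at 284, 313, 296 and 306 CPM against 710 to 757 CPM in resting cells (-1.17 ± 0.03) and 266 to 305 CPM in G2/M cells. Procr (EPCR) was at 16.7 ± 1.09 CPM against 54.4 ± 3.63 in resting cells (-1.57 ± 0.07). Mecom, also a transcription factor of HSCs, was at 499 ± 35.8 CPM against 820 ± 28.9 (-0.62 ± 0.03). With resting cells matched on UMI count the differences were -0.78 for Hlf and -0.97 for Procr, and that of Mecom, -0.42, fell short of the fold minimum. Ctnnal1, a catenin-like gene used as an HSC marker, went the other way, at 20.6, 21.2, 30.3 and 24.9 CPM against 11.5 to 13.5 CPM in resting and 5.85 to 8.36 CPM in G2/M cells. Against G2/M cells 3 HSC genes were higher (Fgd5, Ctnnal1 and Tcf15) and 1 lower (Hoxb5).

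Counted per cell, HSC genes were found in fewer cells than in the resting class. Every cell was thinned to 5000 UMIs, which left out 11 cells entering S phase and 2182 resting cells. At least 2 of the 10 HSC genes were detected in 70.8%, 69.8%, 77.2% and 75.4% of the cells entering S phase per tube and in 88.8%, 90.4%, 88.4% and 90.0% of the resting cells. All 4 tubes went the same way, by 16.1 percentage points on average (73.3% ± 3.53 against 89.4% ± 0.963, SD, n = 4). The two-sided exact sign-flip permutation test gave p = 0.12, the smallest that 4 pairs allow. In 151 cells with at least 3 of 8 B cell genes, a lineage that should lack HSC genes, the share was 24.5% at a median of 14304 UMIs before thinning, against 12144.5 and 7056.5 in the 2 classes compared. Without thinning the shares were 91.7% and 92.0%.

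Some genes of myeloid progenitors were higher than in resting cells. Of 14 granulocyte-monocyte genes 7 were higher, 1 was lower (Gfi1) and 6 did not pass, with a median of 0.60. Over the 10 of them that could also be tested against resting cells matched on UMI count, the median was 0.98 before and 0.14 after matching, and Cebpa, Clec12a and Gfi1 no longer passed. Of 12 genes of multipotent and early lymphoid cells 11 could be tested. Of these 2 were higher, 3 lower and 6 did not pass, with a median of -0.19. Ltb, one of the lower ones, was at 27.6 ± 3.89 CPM against 111 ± 12.1 in resting cells (-1.85, and -1.09 after matching). Flt3, a receptor of multipotent and lymphoid progenitors, was detected in 58.0% ± 1.35 of the thinned cells entering S phase and in 60.1% ± 0.951 of the resting cells, and its level did not pass (-0.17 ± 0.03). Cd48, a surface protein gained as HSCs differentiate, was at 161, 155, 137 and 131 CPM against 62.5 to 76.7 CPM in resting cells, a difference of 1.19 that was 0.54 after matching on UMI count. Mpo, the myeloperoxidase of granulocyte-monocyte progenitors, was at 554, 469, 310 and 363 CPM against 145, 135, 123 and 116 CPM, a difference of 1.81 ± 0.04 that was 0.80 after matching. Both tubes of mouse 1 were above both tubes of mouse 2 in Mpo and in Ctsg (159, 117, 74.8 and 85.8 CPM), and with 2 mice this was not tested. After thinning, Mpo was detected in 59.3% ± 8.0 of the cells entering S phase, 30.4% ± 1.55 of the resting cells and 57.1% ± 6.81 of the G2/M cells, and in 20.5% of the cells with B cell genes. At least 2 HSC genes and Mpo were found together in 38.5% ± 3.62 of the cells entering S phase and 23.7% ± 1.52 of the resting cells. A joint share also follows the share of each marker alone (73.3% and 89.4% for at least 2 HSC genes). Joint detection beyond those shares was not tested. Irf8, a factor of monocyte and lymphoid lineages, was higher by 1.35 but lower by 0.18, without passing, after matching. Elane, made later in granulocyte development, was at 7.26 to 13.5 CPM and did not pass against resting cells. Of 8 mast cell and basophil genes 3 could be tested against resting cells. Cpa3 and Mcpt8 were higher, by 0.83 and 2.03, and by 0.92 and 1.02 after matching. Gata2 did not pass (-0.46).

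**Figure D3:**
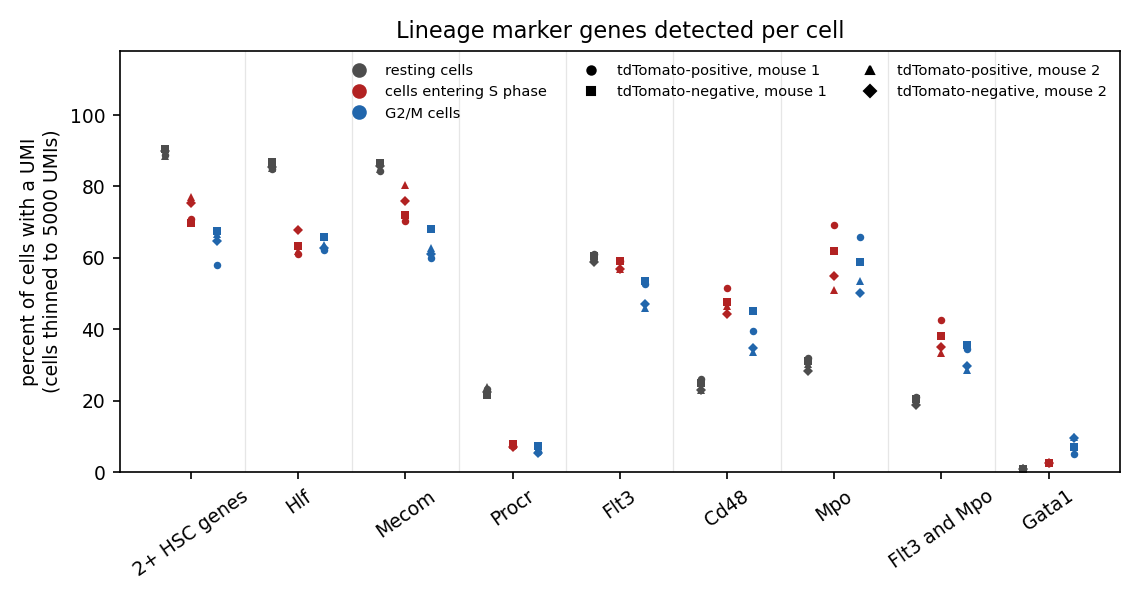
Percent of cells with at least 1 UMI of a marker gene, after thinning every cell to 5000 UMIs, 1 point per tube, in resting cells (grey), cells entering S phase (red) and G2/M cells (blue). The red points lie below the grey ones for the HSC genes, beside them for Flt3 and above them for Cd48 and Mpo.

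Erythroid genes separated the cells from the G2/M class. All 16 erythroid genes were lower than in G2/M cells, with a median of -4.88. Klf1, the master factor of red cells, was at 0.534 to 2.84 CPM in the cells entering S phase and at 21.9 to 62.6 CPM in G2/M cells, highest in the negative tube of mouse 2. At least 2 of 6 erythroid genes were found in 0.515% of the cells entering S phase and in 7.28% of the G2/M cells before thinning. Against resting cells, 6 of the 11 erythroid genes tested were higher (Klf1, Gata1, Car1, Tfrc, Aqp1 and Ermap) and Car2 was lower, with a median of 0.85. Tfrc, the transferrin receptor, differed by 1.05 and by 0.74 after matching on UMI count, and Car1 by 1.59 and -0.43, while Car2 and Aqp1 no longer passed. Cells with no UMI of Klf1, Car1, Ermap or Rhd were also compared, a choice made after these values were seen. There 2699 genes differed from G2/M cells, of which 2219 are among the 2778, and Blvrb and Tfrc were higher by 0.33 and 0.51 where they had been lower by 2.14 and 0.64. The difference in Hist1h1b and the other histones and in the 6 Mcm genes kept its sign there. Of 15 genes of megakaryocytes and platelets 0 were higher and 5 lower than in resting cells. Of these 15 genes 11 could be tested. Among the 8 compared again after matching on UMI count, Cd9 no longer passed (-0.52 before and -0.16 after). The rule left out cells with a Pf4 UMI from both classes, and its part in this list was not tested.

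The genes with the largest differences, among those averaging 10 CPM or more whose sign was shared by all 4 tubes and both chemistries belong only in part to the groups above. Those highest against resting cells were Mcm10, Kntc1, Aunip, E2f7, Tk1, Pclaf, Clspn, Tcf19, Brca1 and Rad51ap1, at log2 differences of 4.91 to 5.78. Pclaf, a partner of Pcna, was at 200, 204, 249 and 234 CPM against 6.31 to 8.55 CPM. Those lowest were Ncam2, Slfn5, Agbl1, Tcp11l2, Il1rapl2, Meg3, Plekhg1, Nr3c2, Gda and Abcg3, at -4.04 to -2.23. Ncam2, a cell adhesion gene, was at 3.38, 2.37, 0.631 and 0.534 CPM against 26.6 to 34.2 CPM in resting cells, and Tcp11l2 at 5.68 to 10.4 CPM against 63.7 to 69.5 CPM. Slfn5, a member of the Schlafen family, was at 0.947 to 6.09 CPM against 28.3 to 30.3 CPM. Meg3, a noncoding RNA of HSCs, had 0 CPM in the positive tube of mouse 1 and at most 7.89 CPM elsewhere, against 9.33 to 25.9 CPM. Against G2/M cells the highest were Ccnd1, Stard13, Bok, Rapgef4, Mpdz, Alkbh2, Wnt5b, Jazf1, Rnf157 and Ncs1, at 1.79 to 2.37. Alkbh2, which repairs alkylated bases, was at 17.5 to 21.6 CPM against 2.54 to 5.12 CPM. Of the 10 lowest, Rhag, Ermap, Rhd and Car1 are erythroid genes, and Cdkn3 and Arhgap19 are mitotic genes at 0.676 to 2.71 CPM against 48.6 to 72.5 CPM.

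The share of cells entering S phase did not differ between the tdTomato gates beyond the spread of the tubes. It was 6.03% (95% exact binomial interval 5.30% to 6.82%) in the positive and 6.61% (6.19% to 7.06%) in the negative tube of mouse 1, and 6.87% (6.10% to 7.70%) and 6.33% (5.91% to 6.77%) in those of mouse 2. The positive tube was lower by 0.588 percentage points in mouse 1 and higher by 0.541 in mouse 2. The mean difference was -0.0236 points (6.45% against 6.47%), with p = 1 in a two-sided exact permutation test that cannot go below 0.33. The intervals cover counting error only. Among cells with 0 UMIs of Pf4, Dntt and Ms4a3 the shares were 10.3% and 11.5% in mouse 1 and 9.37% and 8.81% in mouse 2. Each tube gave a larger share in GEM-X, at 6.70%, 7.37%, 7.33% and 7.21%, than in v3.1, at 5.18%, 5.66%, 6.30% and 5.25%. GEM-X is also the deeper library, and the part of depth in this difference was not tested. With every cell thinned to 5000 UMIs, the rule kept 762 cells, 2.60% and 2.34% of those of mouse 1 and 2.89% and 2.73% of those of mouse 2.

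**Figure D4:**
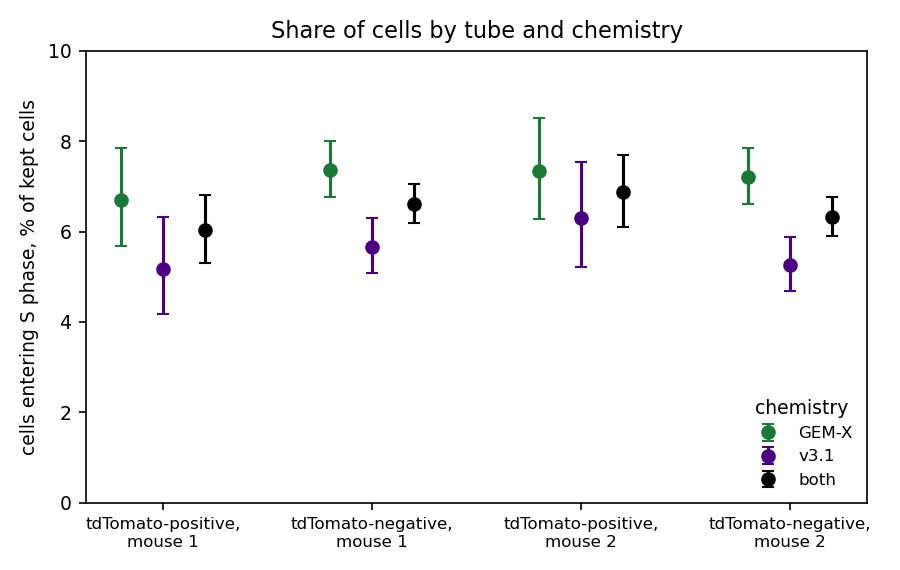
Cells entering S phase as a percent of kept cells in each tube, for GEM-X (green), v3.1 (purple) and both (black), with 95% exact binomial intervals. The values of both chemistries together lie between 6.03% and 6.87%, and each GEM-X point is above the v3.1 point of its tube.

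Gene expression within the cells differed by gate for few genes. With the mouse as a block, 5 of 12237 genes passed an adjusted p of 0.05 in edgeR's quasi-likelihood test (0.0409%), 4 higher (0.0327%) and 1 lower (0.00817%) in the positive tubes, and 643 had an unadjusted p below 0.05. With 4 sums the fit has 1 residual degree of freedom. All 5 calls were lost in DESeq2 and in edgeR without the mouse block. Of the 5, 2 rest on single cells. Ccl5, a chemokine, had 70 of its 82 UMIs in the positive tube of mouse 1 in 1 cell, and Cd74, the invariant chain of MHC class II, had 125 of 177 UMIs in the positive tube of mouse 2 in 1 cell, and both differed in opposite directions in the 2 mice. The other 3 differed the same way in both mice. C77080 was at 29.4 and 16.5 CPM in the positive and negative tubes of mouse 1 and at 32.2 and 15.8 CPM in those of mouse 2 (0.93 ± 0.15, adjusted p = 8.805e-07). Its adjusted p was 0.102 without the positive tube of mouse 1, 0.203 without the mouse block and 0.660 in GEM-X alone. Gt(ROSA)26Sor, the noncoding RNA of the Rosa26 locus, where reporter alleles are often placed, was lower in the positive tubes, at 24.7 against 35.1 CPM and at 20.2 against 33.2 CPM (-0.60, adjusted p = 0.04441). Its call was lost in each fit that left out 1 tube, with adjusted p-values of 0.164 to 1, and in each chemistry alone (0.0722 in GEM-X and 0.959 in v3.1). The labels do not name the locus of the LSLTdTomato allele.

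Jun, an immediate early transcription factor, was at 78.5 and 47.1 CPM in the positive and negative tubes of mouse 1 and at 51.1 and 41.8 CPM in those of mouse 2 (0.54 ± 0.10, adjusted p = 0.0001459). Without the positive tube of mouse 1 the difference was 0.18 and did not pass (adjusted p = 0.967), and without the negative tube of mouse 2 it was 0.44 (adjusted p = 0.442). It passed in neither chemistry alone (adjusted p = 0.134 in GEM-X and 0.114 in v3.1). The positive tube was also above the negative one of the same mouse in resting cells (110 and 90.8 CPM, 84.4 and 75.9 CPM) and in G2/M cells (59.0 and 47.6 CPM, 43.4 and 36.3 CPM). All 10 immediate early genes of the list had a log2 difference above 0 (median 0.30), 9 of them in both mice, with Egr1 the exception, while over all genes tested 51.0% were above 0 and 2988 of 12237 were above 0 in both mice. Only Jun of the 10 passed. Of the 21 licensing, 31 fork and 30 G2/M genes 0 passed by gate. Of the 11 histone genes 0 passed as well, and 8 were lower in the positive tube of both mice (3132 of the 12237 genes were), with a median of -0.18. Of the 10 HSC genes 9 could be tested and 0 passed, but 8 were above 0 (median 0.14), and 6 of the 9 were so in both mice. Above 0 were also 9 of 10 megakaryocyte and platelet genes tested and 18 of 22 growth genes. Of the multipotent and early lymphoid genes 3 of 9 were above 0. Tppp3 itself had 0, 7, 4 and 8 UMIs in the cells entering S phase of the positive and negative tubes of mouse 1 and mouse 2.

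**Figure D5:**
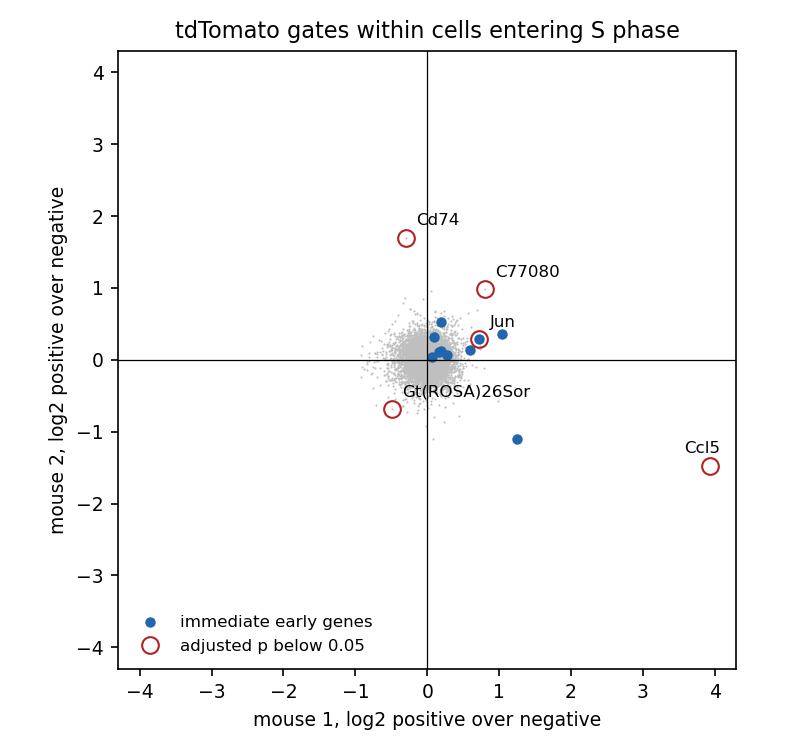
Log2 ratio of CPM in the tdTomato-positive over the tdTomato-negative tube within cells entering S phase, mouse 1 on the horizontal and mouse 2 on the vertical axis, for 9187 genes with a mean of at least 10 CPM (grey), 10 immediate early genes (blue) and the 5 genes with an adjusted p below 0.05 (red rings). Ccl5 and Cd74 have opposite signs in the 2 mice, and C77080, Jun and Gt(ROSA)26Sor share a sign.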

How the data were processed

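The deposited raw UMI counts per gene and cell barcode of 2 matrices were used, with Cell Ranger 8.0.1 and 7.1.0 named per the file headers (the submitters' processing notes name Cell Ranger 7.0.0 and mm10). The matrix taken as GEM-X is so called from its name and its software version. Kept cells had at least 1000 genes, at most 10% mitochondrial UMIs and a top hashtag of at least 10 UMIs and at least 3 times the next. GEM-X gave 20511 barcodes, of which 371 failed on genes or mitochondrial UMIs and 1846 on hashtags. v3.1 gave 17755 barcodes, of which 1034 and 1973 failed. UMI counts were summed per tube and cell class over both chemistries, to 2953875, 11382179, 3165470 and 9354036 UMIs of tested genes for the cells entering S phase, and tested with edgeR 4.0.16 (R 4.3.3, TMM scaling, quasi-likelihood test, Benjamini-Hochberg adjustment), leaving the 23 rule genes out of the class comparisons. A gene was called at an adjusted p below 0.05, and in the class comparisons also at an absolute log2 fold change of at least 0.5. DESeq2 1.42.0 was an alternative. Cell tables and permutation tests used numpy 2.4.6, pandas 2.3.3 and scipy 1.17.1.

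The cells of 1 tube share their source, so the tube was the replicate, with the tube as a block between classes and the mouse as a block between gates. The hashtag text ties a positive and a negative tube to each mouse, and the differences between the mice in the 2 gates correlated across 12230 genes (Pearson r = 0.299, Spearman rho = 0.226; genes are not independent replicates). With 2 mice, p-values measure the spread of these samples only. Genes named by size had the largest log2 differences among called genes averaging 10 CPM or more, their sign shared by all tube pairs and both chemistries, up to 10 each way, without gene models and near-identical families; the other named genes are examples of the gene lists. The members of the class and the lists were chosen with earlier results of these data known. Tested on simulated counts, the fit recovered 90% of genes changed by a log2 of 1 and 67% of those changed by 0.5 against resting cells (13579 genes), 87% and 66% against G2/M cells (12689 genes), and 89% and 49% by gate (12237 genes). The counts were drawn from the means and dispersions of the fit itself. Recovery was scored on the adjusted p alone, without the fold minimum. These shares therefore hold only where the model holds and can be too high for the real counts. Scrublet (scanpy 1.11.5) set thresholds of 0.627 and 0.445, above its highest scores of 0.525 and 0.417, and so called 0 doublets. Cells with 2 hashtags were removed by the hashtag rule. Before that removal 8.24% of multiply tagged cells in GEM-X and 6.29% in v3.1 met the gene rule, against 7.23% and 5.53% of kept cells. A few genes of the lists enter the counts but are not reported one by one. Sequencing reads were not used here.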

Additional observations from a re-analysis of the deposited data

Results flagged for a closer look

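Ung, one of the genes that chose the cells, was at 109, 100, 110 and 109 CPM in the cells entering S phase of the 4 tubes. The negative tube of mouse 1 lay below the other 3, at a gap to its nearest neighbour of 0.8625 of the whole range. Of 25 groups of 4 tubes examined this was the only one past Dixon's limit, and chance passes it in about 1 of 20 groups.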

How the results depend on the processing

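Of 13527 recomputed values of 356 genes, 13198 stayed on the same side of the threshold, 180 lost the call, 138 gained it and 11 called ones changed sign. Values not called either time count among the 13198 whatever their sign. The counts of called genes moved by more than 1.5 times without the fold minimum, to 9497 against resting and 6459 against G2/M cells. By gate, the count of 5 became 3 in GEM-X alone, 8 in v3.1 alone, 13 with at least 7 G1/S genes, 2 to 14 when 1 tube was left out, and 0 in DESeq2 (7 genes at an unadjusted p below 0.05). In edgeR with no replicate block, that is without the pairing by mouse, it was 0 as well (292 unadjusted). The gate difference in the share changed sign with 0 G2/M genes (0.0162 points), in thinned cells (0.208), in v3.1 alone (0.282) and with the hashtag at 10 times the next (0.0724), and was -0.588 or 0.541 in 1 mouse alone. Against resting cells matched on UMI count, 3240 genes were called, of which 2895 are among the 4816. That matching also left out cells entering S phase without a partner. There 30 of the 4816 had the opposite sign. Sign changes were counted only for genes called in the main comparison. Uncalled genes could change as well, as Elane did against resting cells (-0.29 before and 0.31 after this matching). Among the called genes of the 356 followed, the sign changed with this matching for Car1 (-0.43), S100a8 (0.75), S100a9 (0.041) and Irf8 (-0.18). Against G2/M cells it changed in v3.1 alone for Elane (0.17) and Mcpt8 (0.038), when 1 tube was left out for S100a8 (-3.59 to 0.39) and S100a9 (-4.08 to 0.49, both highest with the second mouse's negative tube omitted), and without cells with erythroid genes for Aqp1 (0.76), Blvrb (0.33) and Tfrc (0.51). Of all 2778 genes called against G2/M cells, 62 had the opposite sign without cells with erythroid genes. The causes were not tested. The alternatives added after seeing the data left out cells with erythroid genes or a Scrublet score of at least 0.2. The planned removal of doublets called by Scrublet was not run, since it called none.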
